A study of Rattus norvegicus with 40 samples.

Results

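Peroxisomes hold oxidases and transferases outside the beta-oxidation of fatty acids, and 9 genes of this kind were followed in rat liver under vehicle and 3 doses of a PPAR-alpha agonist. They were chosen by symbol: the hydroxy acid oxidases Hao1 and Hao2, the D-amino acid oxidases Dao and Ddo, the alpha-oxidation enzymes Phyh and Hacl1, the pipecolate oxidase Pipox, urate oxidase Uox and the aminotransferase Agxt. Of the 13437 genes with a named probe set on the array, 7 were members of this group, measured by 8 probe sets. No probe set was named for Ddo or Pipox in the annotation used, and both were not analysed here. The transcripts moved apart at 10 mg/kg: Hacl1 was 3.15-fold and Agxt 2.10-fold higher than in vehicle livers, while Dao was 2.58-fold, Hao2 1.94-fold and Uox 1.27-fold lower on the deposited scale.

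The animals were adult male rats of the Sprague Dawley SD:CD strain. Each of 4 groups held 10 rats, given either vehicle (a dose of 0) or GW7647, a synthetic agonist of the fatty acid receptor PPAR-alpha, whose daily doses were 0.1, 1 and 10 mg/kg. Dosing was by gavage on 4 days, and the liver was taken 24 h after dosing ended. RNA from every liver went on 1 Affymetrix array, so the 40 arrays stand for 40 rats. No transgene or genetic change is named in the labels, and the composition of the vehicle is not given in the sources used here. Whole liver holds several cell types, so fewer cells of a type and less RNA per cell cannot be told apart in any change given here.

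As background, peroxisomes are named for the hydrogen peroxide that their flavin oxidases make when they pass electrons straight to oxygen, and catalase in the same organelle breaks it down. Glycolate oxidase (Hao1) and the long-chain hydroxy acid oxidase (Hao2) oxidise 2-hydroxy acids, D-amino acid oxidase (Dao) oxidises neutral D-amino acids, and urate oxidase (Uox) starts the breakdown of uric acid in most mammals, humans and other apes being exceptions. Glyoxylate from glycolate is turned into glycine by alanine-glyoxylate aminotransferase (Agxt), which keeps it from becoming oxalate. Phytanoyl-CoA 2-hydroxylase (Phyh) and 2-hydroxyacyl-CoA lyase (Hacl1) act in turn in alpha-oxidation, which shortens 3-methyl-branched fatty acids such as phytanic acid that beta-oxidation cannot start on. In rodent liver PPAR-alpha agonists are known to enlarge the peroxisome population and to induce the peroxisomal beta-oxidation enzymes.

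The promoter windows of the 5 members that differed from vehicle at 10 mg/kg are shown so that the sequences upstream of transcripts that rose and transcripts that fell can be set side by side. Each window runs from 250 bases before to 50 bases after a transcription start, 5′ to 3′ on the gene's strand, from RefSeq on the GRCr8 assembly. RefSeq gave 10 such windows for the 9 genes, since Agxt has 2 annotated starts, 4465 bases apart. The windows lie at chr9:101122543-101122842 and chr9:101127008-101127307 (Agxt, plus strand), chr16:6869361-6869660 (Hacl1, minus strand), chr12:48273251-48273550 (Dao, minus strand), chr2:188913084-188913383 (Hao2, minus strand) and chr2:238146880-238147179 (Uox, plus strand). Capitals mark matches, on either strand, to 3 motifs. They are AGGTCA, the core half-site of many nuclear receptors, which reads TGACCT on the reverse strand, the CCAAT box, reading ATTGG in reverse, and the TATA box sequence TATAAA, reading TTTATA in reverse.
Agxt, first start: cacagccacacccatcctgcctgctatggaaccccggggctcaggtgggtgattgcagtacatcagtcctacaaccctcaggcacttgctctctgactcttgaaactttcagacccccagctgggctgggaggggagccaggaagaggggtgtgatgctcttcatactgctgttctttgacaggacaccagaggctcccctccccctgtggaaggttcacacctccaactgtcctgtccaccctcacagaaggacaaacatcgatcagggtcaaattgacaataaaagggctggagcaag
Agxt, second start: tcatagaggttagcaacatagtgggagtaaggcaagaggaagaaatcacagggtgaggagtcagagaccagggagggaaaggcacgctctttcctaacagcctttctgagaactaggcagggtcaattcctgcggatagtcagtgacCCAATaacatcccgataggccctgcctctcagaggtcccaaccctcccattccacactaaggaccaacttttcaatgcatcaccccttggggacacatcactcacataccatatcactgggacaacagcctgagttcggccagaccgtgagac
Hacl1: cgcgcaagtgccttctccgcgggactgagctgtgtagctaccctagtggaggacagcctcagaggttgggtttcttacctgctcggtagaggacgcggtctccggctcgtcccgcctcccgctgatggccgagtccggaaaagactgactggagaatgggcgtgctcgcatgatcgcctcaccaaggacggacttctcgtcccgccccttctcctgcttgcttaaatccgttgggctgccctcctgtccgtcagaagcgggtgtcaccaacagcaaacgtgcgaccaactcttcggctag
Dao: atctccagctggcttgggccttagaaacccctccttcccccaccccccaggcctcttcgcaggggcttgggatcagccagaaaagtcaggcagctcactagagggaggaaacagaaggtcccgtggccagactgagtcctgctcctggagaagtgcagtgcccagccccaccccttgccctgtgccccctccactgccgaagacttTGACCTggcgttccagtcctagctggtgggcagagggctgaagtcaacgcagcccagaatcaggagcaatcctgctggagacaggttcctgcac
Hao2: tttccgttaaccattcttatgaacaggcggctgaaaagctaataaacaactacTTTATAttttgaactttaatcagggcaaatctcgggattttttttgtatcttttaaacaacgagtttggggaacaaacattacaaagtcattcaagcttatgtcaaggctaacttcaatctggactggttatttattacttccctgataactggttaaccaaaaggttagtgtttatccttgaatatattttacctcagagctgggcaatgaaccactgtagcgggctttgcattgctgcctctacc
Uox: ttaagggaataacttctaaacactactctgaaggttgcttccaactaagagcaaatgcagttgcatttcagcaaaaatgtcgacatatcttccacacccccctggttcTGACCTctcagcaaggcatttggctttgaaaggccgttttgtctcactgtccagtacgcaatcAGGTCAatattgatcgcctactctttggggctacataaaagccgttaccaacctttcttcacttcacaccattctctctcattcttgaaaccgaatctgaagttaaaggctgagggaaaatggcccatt

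AGGTCA was found in the windows of Uox and Dao but not in that of Hao2, whose transcript also fell, nor in those of Agxt and Hacl1. In Uox it lay 142 bases upstream on the reverse strand and 79 bases upstream on the forward strand, and in Dao 44 bases upstream on the reverse strand. With Ddo, 3 of the 10 windows held it, against 16.2% of 33469 RefSeq promoters of the same length. The spaced repeat AGGTCANAGGTCA, the form bound by the PPAR-alpha and RXR pair, was in 0 of the 10 windows and in 0.0538% of all promoters. A looser form, AGGNCANAGGNCA, was also in 0 of 10 windows, against 0.415% of all promoters. CCAAT was in 3 windows, among the printed ones in that of the second Agxt start, against 37.5% of all promoters. TATAAA was in 1, that of Hao2, 197 bases upstream on the reverse strand, against 14.2% of all promoters. These matches describe the letters of each window and were not tested for binding.

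Values are log2 expression per probe set, so that 1 unit is a doubling, and a level is never compared between genes, since each probe set has its own response. The deposited scale itself moved with dose: the change of the median gene against vehicle was -0.03, 0.16 and 0.26 from the lowest to the highest dose. After quantile normalization of the 40 arrays it was 0.00, -0.01 and -0.02. Rose and fell are therefore used only where limma's p, adjusted by Benjamini-Hochberg for the 13437 genes, was under 0.05 in the same direction on both scales. Of the genes past that threshold at 10 mg/kg, 88.0% were higher on the deposited scale alone, 45.6% after quantile normalization alone and 72.7% by both; at 1 mg/kg the shares were 91.9%, 47.8% and 76.6%. Averaged over the array pairs of 2 groups, the share of probe sets with equal values was 0.0224% to 0.0304% within groups, 0.0263% between vehicle and 0.1 mg/kg and 0.000996% to 0.00164% between the other groups. Single pairs overlapped, from 0.00321% to 0.128% within groups and from 0 to 0.0128% in those other group pairs, and a separate normalization run and the dose cannot be told apart where they coincide. Poly-A control probe sets averaged 5.57 ± 0.37 (SD, n = 10) in vehicle and, with rising dose, 5.84 ± 0.28, 6.22 ± 0.73 and 6.56 ± 0.38. Of a list of known PPAR-alpha targets, 3 of 7 measured genes rose at 0.1 mg/kg (Cyp4a1, Ehhadh and Pex11a) and 7 of 7 at 1 and at 10 mg/kg. Over all genes 0.0893% were called at 0.1 mg/kg, and 11.1% and 20.5% were higher at 1 and 10 mg/kg. The fatty acid hydroxylase gene Cyp4a1 rose 1.86-fold, 7.65-fold and 9.59-fold from the lowest to the highest dose.

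Counted over the 7 measured enzymes, no transcript was called against vehicle at 0.1 mg/kg: 0 of 7 passed limma's threshold on both scales, where 0.0893% of all genes did, and 0 of 7 had an unadjusted p under 0.05, where 4.37% of all genes did. The 1 mg/kg dose gave 3 rises (Agxt, Hacl1 and Phyh) and 1 fall (Dao), while 14.4% of all genes passed, 11.1% higher and 3.37% lower. The 10 mg/kg dose gave 2 rises (Agxt and Hacl1) and 3 falls (Dao, Hao2 and Uox), against 28.1% of all genes, 20.5% higher and 7.69% lower. The median change of the 7 at 10 mg/kg was -0.06 on the deposited scale and -0.35 with quantile normalization, beside 0.26 and -0.02 for all genes. Between neighbouring doses, Agxt and Hacl1 rose from 0.1 to 1 mg/kg, where 13.4% of all genes changed, 10.5% upward and 2.95% downward. From 1 to 10 mg/kg Agxt and Hacl1 rose again and Dao and Hao2 fell, where 14.5% of all genes changed, 8.55% upward and 5.98% downward. Only for Agxt did the 10 mg/kg and vehicle arrays not overlap on either scale, a separation that 4.58% of all genes showed in 1 direction on both scales.

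**Figure D1:**
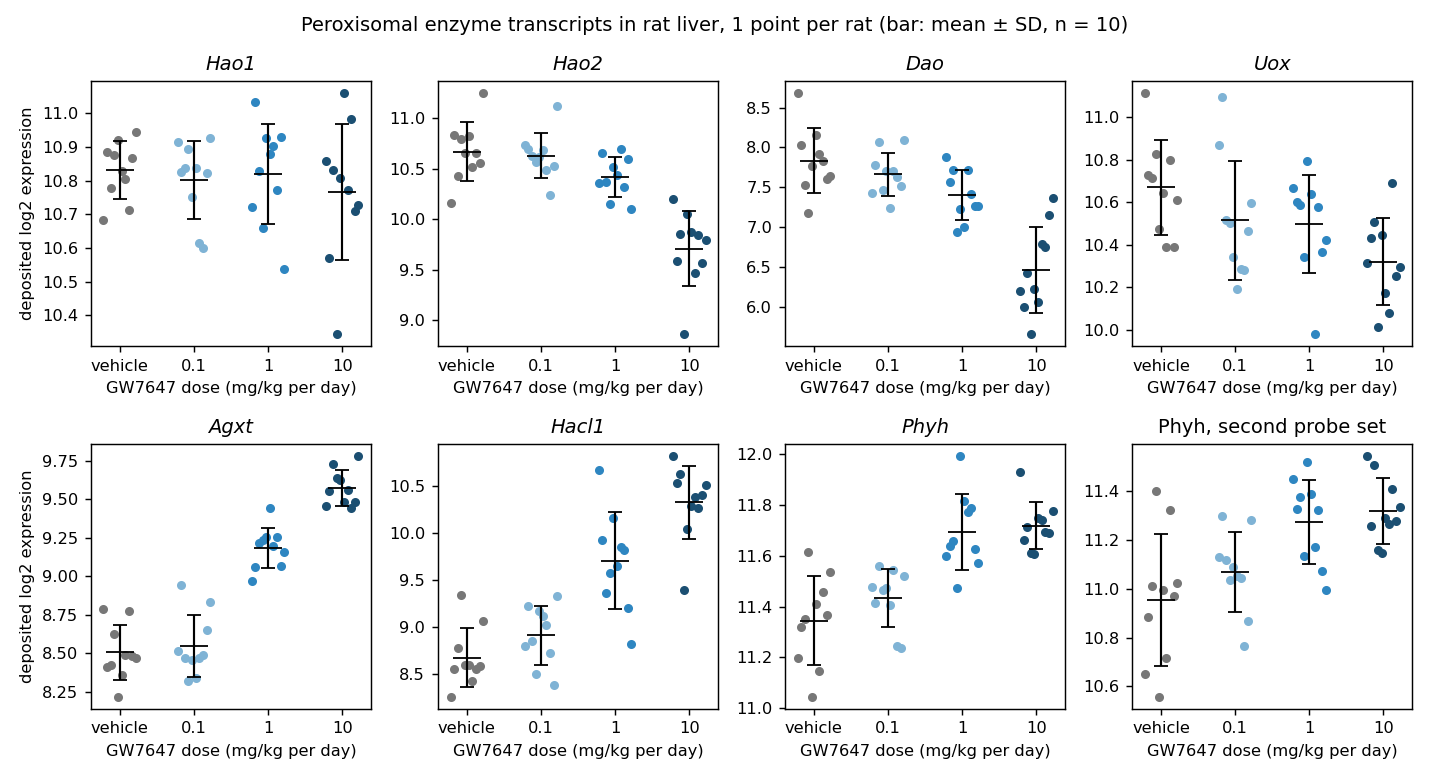
Deposited log2 expression of each enzyme (y axis, each panel with its own range) by GW7647 dose (x axis, mg/kg per day), 1 point per rat with the group mean and SD of 10 arrays. Agxt and Hacl1 step upward at 1 and 10 mg/kg, Hao2 and Dao drop most between 1 and 10 mg/kg, and Hao1 keeps group means between 10.77 and 10.83 while its spread widens.

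Of the hydroxy acid oxidases, Hao2 fell at 10 mg/kg and Hao1 was called at no dose, and the difference between them was not tested. Hao1, glycolate oxidase, had group means of 10.83 ± 0.09 (SD, n = 10) in vehicle and, with rising dose, 10.80 ± 0.11, 10.82 ± 0.15 and 10.77 ± 0.20. Its vehicle arrays ran from 10.68 to 10.94 (median 10.85), and its 10 mg/kg arrays from 10.34 to 11.06 (median 10.79). All 4 groups overlapped, and no neighbouring pair of doses passed the test on both scales.

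For Hao1 the scale decided the answer, so no rise or fall is called. The deposited change at 10 mg/kg was -0.06 (SE 0.07, 95% interval -0.20 to 0.07, limma adjusted p = 0.415). After quantile normalization it was -0.35 (interval -0.48 to -0.23, adjusted p = 8.36e-06), which is larger than the change of -0.02 of the median gene on that scale. The corresponding changes at 1 mg/kg were -0.01 (adjusted p = 0.907) and -0.21 (adjusted p = 0.00911).

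Hao2, the oxidase of longer-chain 2-hydroxy acids, fell at 10 mg/kg. The vehicle arrays lay at 10.16 to 11.25 with a median of 10.66. At 0.1 mg/kg they lay at 10.24 to 11.12 (median 10.62), and at 1 mg/kg at 10.11 to 10.69 (median 10.40). The 10 mg/kg arrays lay at 8.86 to 10.20 (median 9.82), so 9 of 10 rats were below every vehicle rat. On the quantile-normalized scale the vehicle and 10 mg/kg groups did not overlap.

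The Hao2 change at 10 mg/kg was -0.96 on the deposited scale (SE 0.12, 95% interval -1.20 to -0.71, limma adjusted p = 1.40e-08), and -1.24 after quantile normalization (adjusted p = 2.59e-11). The step from 1 to 10 mg/kg made up most of it, at -0.71 (SE 0.12, adjusted p = 2.70e-05). The change from vehicle at 1 mg/kg was -0.25 (interval -0.49 to -0.00175, adjusted p = 0.0981) and -0.43 after quantile normalization (adjusted p = 0.00697), which did not meet the rule for both scales. The 2 lowest doses and vehicle were thus neighbours in level with no call between them. Without vehicle replicate 1, the lowest vehicle array, the 1 mg/kg difference passed on both scales (change -0.30, adjusted p = 0.0394).

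Dao, the flavin oxidase of D-amino acids, had the largest fall among the 7 transcripts. Its vehicle arrays ran from 7.18 to 8.68 (median 7.80) and its 0.1 mg/kg arrays from 7.25 to 8.10 (median 7.66). At 1 mg/kg they ran from 6.94 to 7.89 (median 7.35) and at 10 mg/kg from 5.67 to 7.37 (median 6.33). The order of the medians followed the dose, though neither vehicle and 0.1 mg/kg nor 0.1 and 1 mg/kg passed the test on both scales, and 9 of 10 rats at 10 mg/kg were below the lowest vehicle rat.

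The Dao change at 10 mg/kg was -1.37 (SE 0.17, 95% interval -1.71 to -1.02, limma adjusted p = 9.14e-09) and after quantile normalization -1.68 (adjusted p = 1.06e-10). The step from 1 to 10 mg/kg was -0.94 (SE 0.17, adjusted p = 6.24e-05). The fall at 1 mg/kg was smaller, -0.43 (SE 0.17, adjusted p = 0.0390), and -0.68 after quantile normalization (adjusted p = 0.00299). That call was lost when any 1 of 9 arrays was left out: vehicle replicates 1, 2, 6 or 7, or 1 mg/kg replicates 4, 5, 6, 9 or 10. The smallest change, -0.34 (adjusted p = 0.0970), was that without vehicle replicate 1.

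Of the alpha-oxidation pair, Hacl1 had the largest rise among the 7 transcripts. This lyase cuts the hydroxylated acyl-CoA made by Phyh into formyl-CoA and an aldehyde. Its vehicle arrays lay between 8.25 and 9.34 (median 8.59), and those at 0.1 mg/kg between 8.38 and 9.33 (median 8.93). The 1 mg/kg arrays lay between 8.82 and 10.67 (median 9.74) and at 10 mg/kg between 9.39 and 10.83 (median 10.40). All 10 rats at 10 mg/kg were above every vehicle rat on the deposited scale, though not after quantile normalization, and 8 of 10 were at 1 mg/kg.

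Hacl1 changed by 1.03 at 1 mg/kg, or 2.05-fold (SE 0.17, limma adjusted p = 6.14e-06), and by 0.81 after quantile normalization (adjusted p = 0.000382). The change was 1.66 at 10 mg/kg (SE 0.17, 95% interval 1.31 to 1.999, adjusted p = 8.80e-11), and 1.35 after quantile normalization. The group at 1 mg/kg was the most spread, with an SD of 0.52 against 0.32 in vehicle. From 1 to 10 mg/kg Hacl1 rose by 0.62 (SE 0.17, adjusted p = 0.00457). Scaling to the hybridisation controls lost that call (0.56, adjusted p = 0.0635), as did requiring a change beyond 1.2-fold (adjusted p = 0.931). The same step was also not called once replicates 5 to 10 at 1 mg/kg were left out (0.44, adjusted p = 0.310). At 0.1 mg/kg the change was 0.24 (interval -0.11 to 0.58, adjusted p = 1.00).

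Phyh, the hydroxylase of the step before, had smaller changes and was read by 2 probe sets. The probe set used gave 11.05 to 11.62 in vehicle (median 11.36), 11.24 to 11.56 at 0.1 mg/kg (median 11.47), 11.47 to 11.99 at 1 mg/kg (median 11.65) and 11.61 to 11.93 at 10 mg/kg (median 11.71). All groups next to each other in dose overlapped, as did vehicle and 10 mg/kg. The change was 0.35 at 1 mg/kg (SE 0.06, limma adjusted p = 3.76e-05), and 0.19 after quantile normalization (adjusted p = 0.0201). It was 0.37 at 10 mg/kg (SE 0.06, adjusted p = 4.83e-06), but only 0.13 after quantile normalization (adjusted p = 0.0809), so the transcript is not called there.

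The rise of Phyh at 1 mg/kg depended on the probe set and the scale. The second Phyh probe set changed by 0.32 at 1 mg/kg (adjusted p = 0.00310) and by 0.13 after quantile normalization (adjusted p = 0.265), and at 10 mg/kg by 0.37 and 0.08. The call at 1 mg/kg was lost with the mean of both probe sets (adjusted p = 0.0785), with only vehicle and 1 mg/kg in the model (0.0594) and with the hybridisation control scaling (0.229). Within the 1 mg/kg group, arrays 1 to 4 had poly-A controls of 5.25 to 5.70 and arrays 5 to 10 of 6.34 to 7.39. Between these array sets the mean of Phyh was 11.59 and 11.76, that of Dao 7.53 and 7.32, and that of Hacl1 9.89 and 9.58. With arrays 1 to 4 alone the rise of Phyh (0.25, adjusted p = 0.425) and the fall of Dao (-0.31, adjusted p = 0.351) at 1 mg/kg were lost. Both calls were also lost with the poly-A level as a covariate (adjusted p = 0.0786 for Phyh and 0.0602 for Dao).

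Agxt, the enzyme that disposes of glyoxylate, rose in a dose-ordered way with little spread within groups. Its arrays ran from 8.22 to 8.79 in vehicle (median 8.48), from 8.32 to 8.94 at 0.1 mg/kg (median 8.48), from 8.97 to 9.44 at 1 mg/kg (median 9.21) and from 9.44 to 9.78 at 10 mg/kg (median 9.56). Vehicle and 0.1 mg/kg shared a range, whereas on the deposited scale every rat at 1 mg/kg was above every vehicle rat and every rat at 10 mg/kg above every rat at 1 mg/kg, the nearest rats of these 2 groups both reading 9.44. After quantile normalization the separation from vehicle held at 10 mg/kg and not at 1 mg/kg. The 1 and 10 mg/kg groups also overlapped on that scale, with 6 of 10 rats at 10 mg/kg above every rat at 1 mg/kg.

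The Agxt change was 0.68 at 1 mg/kg, or 1.60-fold (SE 0.07, limma adjusted p = 2.07e-09), and 1.07 at 10 mg/kg (SE 0.07, 95% interval 0.92 to 1.22, adjusted p = 1.59e-15). After quantile normalization it was 0.45 (adjusted p = 2.24e-05) and 0.75 (adjusted p = 6.40e-11). Both steps between the treated doses were rises, by 0.64 from 0.1 to 1 mg/kg (adjusted p = 9.89e-09) and by 0.39 from 1 to 10 mg/kg (adjusted p = 0.000104). After quantile normalization the steps were 0.40 and 0.31 (adjusted p = 0.000106 and 0.00258). Neither step, nor the rise at 1 mg/kg, was called when the change had to exceed 1.2-fold. At 0.1 mg/kg the change was 0.04 (interval -0.11 to 0.19).

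Uox, urate oxidase, showed a small fall at the highest dose. Its arrays ran from 10.39 to 11.11 in vehicle (median 10.68), from 10.19 to 11.09 at 0.1 mg/kg (median 10.48), from 9.98 to 10.79 at 1 mg/kg (median 10.58) and from 10.02 to 10.69 at 10 mg/kg (median 10.30). The groups overlapped at every dose, no neighbouring pair of doses passed the test on both scales, and 6 of 10 rats at 10 mg/kg were below the lowest vehicle rat. The change at 10 mg/kg was -0.35 (SE 0.10, 95% interval -0.56 to -0.14, limma adjusted p = 0.00372), and -0.62 after quantile normalization (adjusted p = 2.48e-06). It no longer passed with the poly-A level as a covariate (-0.25, adjusted p = 0.0973). The change at 1 mg/kg was -0.17 (adjusted p = 0.181) and -0.35 after quantile normalization (adjusted p = 0.00889).

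**Figure D2:**
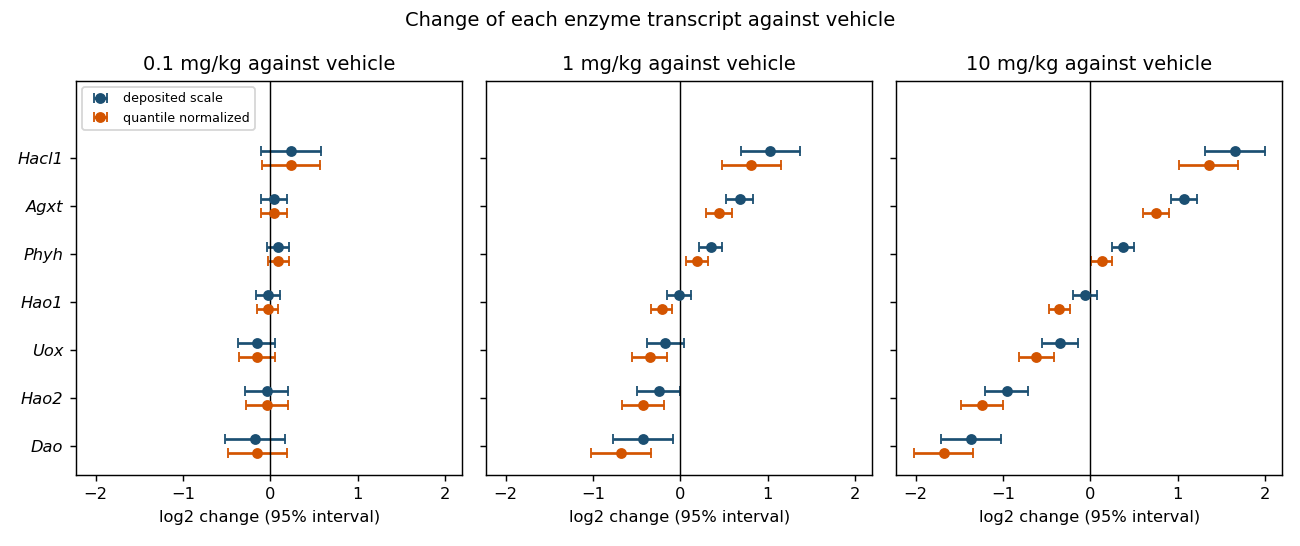
Log2 change against vehicle (x axis) of each enzyme (y axis) at each dose, in blue on the deposited scale and in orange after quantile normalization, with 95% intervals from the model of 40 arrays. At 10 mg/kg the intervals of Hacl1, Agxt and Phyh lie above 0 and those of Uox, Hao2 and Dao below 0 on both scales, while the deposited interval of Hao1 spans 0; these intervals are not adjusted for the number of genes, and Phyh missed the adjusted threshold after quantile normalization.

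The genes that work beside these enzymes were taken from lists of their pathways. Among glyoxylate and glycine partners, 2 of 13 rose and 0 fell at 10 mg/kg, where 20.5% of all genes were higher and 7.69% lower. Lactate dehydrogenase A (Ldha), which can turn glyoxylate into oxalate, rose 1.61-fold (limma adjusted p = 1.01e-12). The aminomethyltransferase of the glycine cleavage system (Amt) rose 1.42-fold (adjusted p = 5.62e-09). After quantile normalization their log2 changes were 0.48 and 0.20 (adjusted p = 1.96e-08 and 0.00785). The median change of this list was 0.21 as deposited and -0.06 after quantile normalization, close to that of all genes (0.26 and -0.02), while Agxt changed by 1.07 and 0.75. Of this list, 1 of 13 rose at 1 mg/kg, again Ldha, where 11.1% of all genes were higher.

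Of 9 measured genes of purine breakdown, among them Urah, which acts on the product of Uox, 3 fell at 10 mg/kg and 0 rose, beside 7.69% lower and 20.5% higher over all genes. Xanthine dehydrogenase (Xdh), whose product is uric acid, the substrate of Uox, changed by -1.20 (SE 0.10, limma adjusted p = 1.05e-13), from 9.35 ± 0.20 (SD, n = 10) to 8.15 ± 0.24. The cytosolic nucleotidase gene Nt5c2 changed by -0.42 (SE 0.16, adjusted p = 0.0224). The third was adenosine deaminase (Ada), at -0.50, whose group means stayed under log2 5. The same 3 genes were called lower at 1 mg/kg, Xdh by -0.31, where 3.37% of all genes were lower. Among genes of lysine, pipecolate and sarcosine breakdown, the setting of Pipox, 1 of 10 rose and 3 fell at 10 mg/kg. Over all genes 20.5% were higher and 7.69% lower at that dose. Aass, the first enzyme of the saccharopine route of lysine breakdown, changed by -0.59 (adjusted p = 7.42e-05), and glutaryl-CoA dehydrogenase (Gcdh) by 0.50 (adjusted p = 2.81e-07). Smaller falls were those of Dhtkd1 (-0.23), a 2-oxoadipate dehydrogenase subunit, and of dimethylglycine dehydrogenase, Dmgdh (-0.22). After quantile normalization Aass changed by -0.86, Dmgdh by -0.53, Dhtkd1 by -0.49 and Gcdh by 0.20.

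Of 10 partner genes of Phyh and Hacl1 for phytol and branched-chain fatty acids, 6 rose and 2 fell at 10 mg/kg, with a median change of 0.59 (0.33 after quantile normalization), while over all genes 20.5% were higher and 7.69% lower, with a median of 0.26 (-0.02). Among the called genes of the array 72.7% were higher, so the split between rises and falls in this list is near that of the array. The peroxisomal transporter Abcd3, which takes branched-chain acyl-CoA into the organelle, rose 4.19-fold, carnitine octanoyltransferase (Crot) 3.59-fold and the D-bifunctional protein Hsd17b4 2.15-fold. The acyl-CoA synthetase Slc27a2, which activates very-long-chain and branched fatty acids, rose 1.89-fold. The racemase Amacr (-0.73, limma adjusted p = 4.41e-08) and the branched-chain oxidase Acox2 (-0.32, adjusted p = 0.0291) fell; both also act on bile acid intermediates. The 1 mg/kg dose had 6 of the 10 higher on both scales and 0 lower, where 11.1% of all genes were higher and 3.37% lower.

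Among 22 other proteins of the peroxisomal matrix and membrane, 12 rose and 0 fell at 10 mg/kg, with a median of 0.73 (0.43 after quantile normalization). Over all genes 20.5% were higher and 7.69% lower, with a median of 0.26 (-0.02 after quantile normalization). Carnitine acetyltransferase (Crat) rose from 4.78 ± 0.28 (SD, n = 10) to 9.32 ± 0.24 on the log2 scale, and no fold is given because the vehicle mean lay under log2 5. The dienoyl-CoA isomerase Ech1 rose 8.01-fold, the CoA hydrolase Nudt7 4.36-fold and the carbonyl reductase Dhrs4 2.67-fold. Of this list Ech1 was the gene that also rose at 0.1 mg/kg, by 0.71. Catalase (Cat), which removes the peroxide that Hao1, Hao2, Dao and Uox make, changed by 0.41 on the deposited scale (limma adjusted p = 8.52e-05) and by 0.15 after quantile normalization (adjusted p = 0.175), and so is not called. Of 8 measured import genes, 1 rose, the ATPase Pex6 (2.13-fold), where 20.5% of all genes were higher. The import receptors were not called at 10 mg/kg: Pex5 changed by 0.18 and, after quantile normalization, -0.13, and Pex7, which carries Phyh into the peroxisome, by 0.47 and 0.15.

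**Figure D3:**
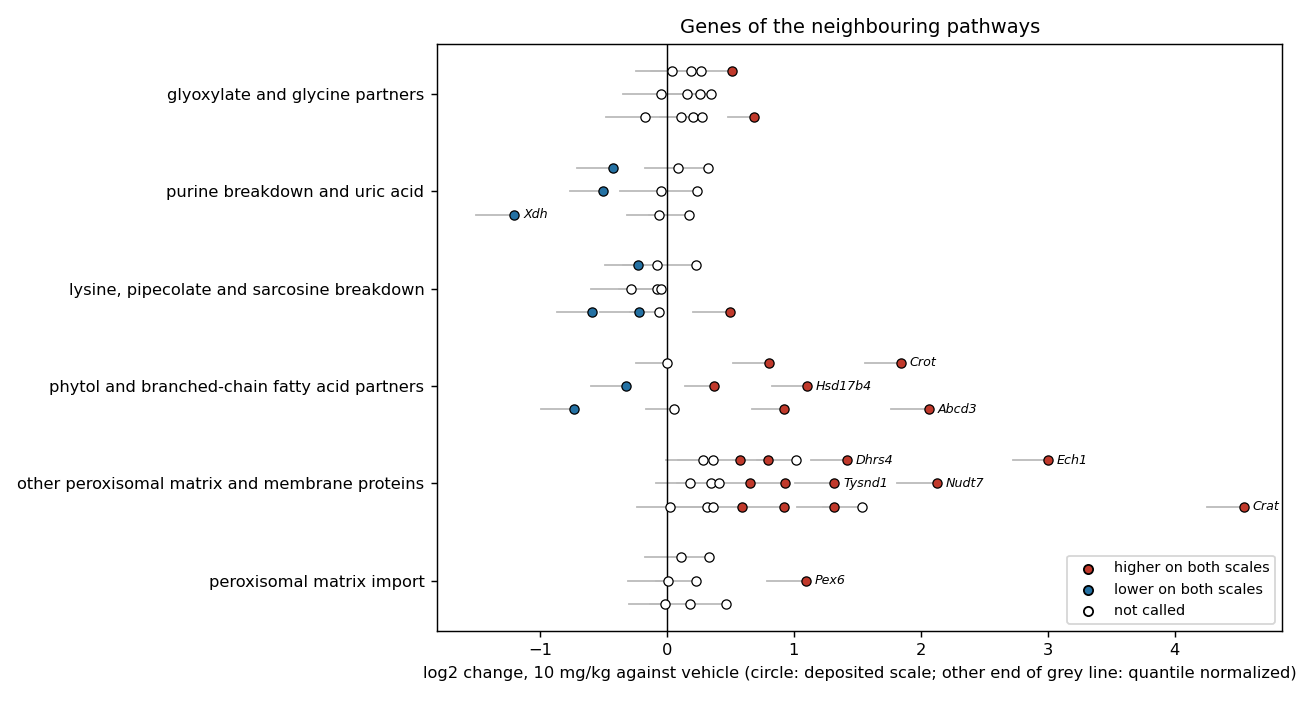
Log2 change at 10 mg/kg against vehicle (x axis) of the measured genes of 6 pathway lists (y axis), each circle a gene on the deposited scale and the far end of its grey line the change after quantile normalization. Red genes rose and blue genes fell on both scales; Xdh stands lowest in the purine list at -1.20 and Crat highest among peroxisomal proteins.

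The Dao and Hacl1 courses were set beside those of other genes, because both changed at least 2-fold on both scales. Likeness was the root mean square difference of the 3 changes against vehicle on the quantile-normalized scale, over 40 arrays and 5798 genes with a group mean of log2 5 or more. Nearest to Dao were argininosuccinate synthase (Ass1, difference 0.06), proline dehydrogenase (Prodh, 0.08) and histidine ammonia-lyase (Hal, 0.09), 3 enzymes of amino acid metabolism. Only the nearest 3 of the 5798 genes are named for Dao and for Hacl1, and a shared function was not tested. The quantile-normalized change of Ass1 was -0.22, -0.74 and -1.70 from the lowest to the highest dose, beside -0.15, -0.68 and -1.68 for Dao. Nearest to Hacl1 were a fatty acid binding protein gene (Fabp7, 0.06), the mitochondrial carnitine palmitoyltransferase Cpt1a (0.06) and the epoxide hydrolase Ephx2 (0.08). Cpt1a changed by 0.15, 0.86 and 1.38 beside 0.24, 0.81 and 1.35 for Hacl1. Ephx2 was spread at 10 mg/kg, with an SD of 1.88 over 10 arrays, and did not pass on both scales.

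Marker lists of liver cell types were read beside the falls of Dao, Hao2 and Uox at 10 mg/kg. At that dose 20.5% of all genes were called higher and 7.69% lower, to be held beside each count below. Of periportal hepatocyte markers, 6 of 10 fell and 0 rose, Ass1 and Hal among them, and their summed linear signal was 14995 to 18198 in vehicle, 14080 to 19314 at 0.1 mg/kg, 12963 to 17760 at 1 mg/kg and 11359 to 14121 at 10 mg/kg. After quantile normalization the periportal sums were 16081 to 19474 in vehicle and 10192 to 13088 at 10 mg/kg, without overlap. Of pericentral markers, 2 of 8 rose (Glul and Cyp7a1) and 2 fell (Cyp1a2 and Oat), with sums of 7333 to 9577 in vehicle and 6361 to 10038 at 10 mg/kg. The median pericentral sum went from 8512 to 9458 as deposited but from 9051 to 8581 after quantile normalization. Of hepatocyte markers as a whole, 4 of 9 fell (Serpina1, Hnf4a, Cps1 and Apoc3), with deposited sums of 48418 to 52789 in vehicle and 44830 to 51493 at 10 mg/kg. After quantile normalization these ran from 51164 to 53906 and from 43049 to 49597, without overlap. Albumin (Alb) was at 13.52 and 13.50. Of macrophage markers, 7 of 8 fell, with sums of 1624 to 3003 in vehicle and 967 to 1881 at 10 mg/kg, and of 1802 to 3282 and 872 to 1667, without overlap, after quantile normalization. Sums of sinusoidal endothelial markers overlapped on the deposited scale, at 671 to 823 and 563 to 784, but not after quantile normalization, at 743 to 895 and 520 to 695. Stellate marker sums were 508 to 804 and 620 to 914, and 557 to 871 and 544 to 802 after quantile normalization. Deposited sums of cholangiocyte markers were 60.0 to 98.8 and 70.3 to 162, and those of lymphocyte and leukocyte markers 42.1 to 65.0 and 46.6 to 104. After quantile normalization they were 63.2 to 106 and 63.0 to 141, and 44.6 to 69.4 and 43.2 to 92.2. By gene, 2 of 6 endothelial markers fell and 0 rose, and 1 of 8 stellate markers rose and 1 fell. Of 6 cholangiocyte markers 2 rose and 1 fell, and of 7 lymphocyte and leukocyte markers 0 were called. The part of these cell types in the changes of Dao, Hao2, Uox, Agxt and Hacl1 was not tested.

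**Figure D4:**
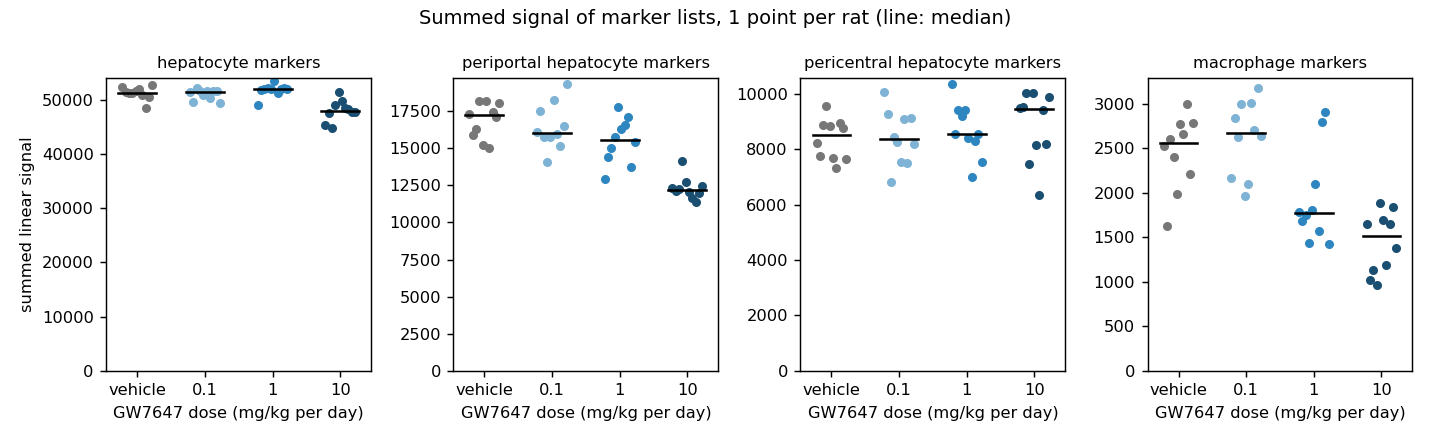
Summed linear signal of 4 marker lists (y axis, from 0) by GW7647 dose (x axis, mg/kg per day), 1 point per rat with the group median as a line. The periportal sums at 10 mg/kg, 11359 to 14121, all lie below the vehicle range, while the pericentral sums overlap.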

How the data were processed

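Liver RNA of 40 rats was measured on 1 array each, and groups and doses came from the labels, which give a dose and a replicate number. The authors' deposited values are log2 expression per probe set, for which the submitters' processing notes name GCRMA and Partek, with no version. They were used as deposited, and array data have no read depth, so precision is set by how many arrays a group has.

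Of 31139 probe sets, 19062 had 1 gene symbol, 573 several and 11504 none here. Symbols were updated through Entrez numbers (18983 matched) in a RefSeq table of GRCr8. Each gene was read from its probe set of highest mean across the 40 arrays. This gave 13437 genes, and 3985 had further probe sets. Comparisons were contrasts of 4 group means in limma 3.58.1 (R 4.3.3, lmFit and eBayes, 36 residual degrees of freedom, two-sided). A gene was called when p, adjusted by Benjamini-Hochberg across the 13437 genes, was under 0.05 in the same direction on the deposited and on the quantile-normalized values. Unless stated, errors, intervals and folds refer to deposited values. The adjusted p of the second Phyh probe set is from a fit with all probe sets. The fit was tested on simulated data. These held no shift of the array scale with dose, so the handling of that shift was not tested. Figures were drawn with matplotlib 3.10.9 in Python 3.11.15.

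The members and gene lists were chosen with earlier results of these data known. Named genes are all members, from each list up to 4 called genes that changed most at 10 mg/kg (a group mean of at least log2 5), the 3 genes most like each member that changed at least 2-fold on both scales, and Cat, Ehhadh, Cyp4a1, Pex5, Pex7 and Ppara. Another gene of this rule is not reported here. Ada, Urah, Amacr, Acox2, Alb and the markers were named outside this rule, after their values were seen. Same-numbered rats of different groups did not deviate together (median r 0.04 over 60 pairs, -0.01 over 540 pairs of different numbers), so the numbers were not used as pairs. Alternatives were other scalings, priors, weights, covariates, probe set rules and filters, and leaving out arrays.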

Additional observations from a re-analysis of the deposited data

Results flagged for a closer look

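In 28 groups of 10 arrays checked (7 enzymes by 4 groups), 1 array stood apart from its group. Phyh in 10 mg/kg replicate 1 read 11.93, the highest of its group, and the nearest rat read 11.78. The gap was 0.478 of the group's range, where 0.466 is Dixon's limit for 10 arrays, a limit that chance passes in about 1 in 20 groups. After quantile normalization the same array read 11.78. The change of Phyh at 10 mg/kg was not called with all arrays, and over the 20 fits that each left out 1 array it ran from 0.34 to 0.40.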

How the results depend on the processing

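The number of the 7 enzymes called against vehicle was 0 at 0.1 mg/kg under every alternative run. At 1 mg/kg it was 4, and 7 after quantile normalization alone, 1 when the change had to exceed 1.2-fold, 2 with the poly-A covariate and 2 with arrays 1 to 4 of that group. The step from 0.1 to 1 mg/kg gave 2 calls, and 5 after quantile normalization alone and 0 beyond 1.2-fold. The step from 1 to 10 mg/kg gave 4, and 2 beyond 1.2-fold. At 10 mg/kg it was 5, and between 4 and 6 under all alternatives. The causes were not tested. Leaving out 1 array at a time gave 0, 3 to 4 (1 mg/kg), 5 to 6 (10 mg/kg), 2 and 4 calls in these comparisons. Phyh was called at 10 mg/kg without vehicle replicate 4 or 10. With the replicate number as a block the counts were 0, 4, 5, 2 and 4, as without it, and no enzyme's call changed. Over all genes, the deposited scale alone gave 5592 calls at 1 mg/kg and 8626 at 10 mg/kg, quantile normalization alone 3106 and 6021, and the 1.2-fold test 248 and 1097, against 1938 and 3781 by both scales.

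Of 490 comparisons of an enzyme's change with its alternative, 440 kept direction and call, 19 lost the call, 16 gained it and 15 turned sign. None of these 15 was in a change called by the rule for both scales. Among them, the Hao1 step from 0.1 to 1 mg/kg did pass, as a fall, after quantile normalization alone (limma adjusted p = 0.0257). For Hao1 the step from 0.1 to 1 mg/kg turned to -0.18 after quantile normalization, to -0.11 with either 1 common median or the hybridisation control scaling, and to -0.006278 without the 2 arrays of lowest upper quartile (0.1 mg/kg replicates 8 and 9), which was chosen after seeing the data. Hao1 against vehicle turned to 0.001141 at 1 mg/kg with array weights, and to 0.051 at 1 mg/kg and 0.031 at 10 mg/kg with the poly-A covariate. For Phyh the step from 1 to 10 mg/kg turned to -0.061, -0.093 and -0.039 after quantile, median and hybridisation scaling. For Uox the step from 0.1 to 1 mg/kg turned to 0.009373 with array weights, 0.019 with the poly-A covariate and 0.035 with arrays 1 to 4. Hao2 at 0.1 mg/kg turned to 0.0004242 with the poly-A covariate and 0.023 without the 2 arrays. Leaving out 1 array turned the sign of uncalled changes near 0, which ran from -0.053 to 0.048 for the Uox step from 0.1 to 1 mg/kg, -0.007273 to 0.048 for that of Hao1, -0.035 to 0.020 for Hao1 at 1 mg/kg, -0.096 to 0.025 for Hao2 and -0.001042 to 0.074 for Agxt at 0.1 mg/kg, and -0.00056 to 0.057 for the Phyh step from 1 to 10 mg/kg. All group means of the 7 enzymes were above log2 5. Single arrays of Dao at 10 mg/kg went down to 5.67, and to 5.49 after quantile normalization. Whether signal near background limits any enzyme was not tested.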

Other observations

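Beside the enzymes described above, Ehhadh, which encodes the peroxisomal bifunctional enzyme of beta-oxidation, rose 1.42-fold, 6.33-fold and 8.77-fold from the lowest to the highest dose. The acyl-CoA thioesterase Acot1, the pantetheinase Vnn1 and the peroxisome division factor Pex11a changed by 9.91, 4.85 and 3.66 at 10 mg/kg on the deposited log2 scale, and all 3 rose on both scales by limma's adjusted p. Acot1 and Ppara, the receptor itself, were near the floor of the scale in vehicle livers (1.65 and 2.17), so their changes start from the dim end of the array. Ppara changed by 0.45 at 10 mg/kg as deposited and by 0.21 after quantile normalization (adjusted p = 0.115), and was not called at any dose.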
